A study of Mus musculus with 6 samples.

Results

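Heat shock proteins and their J-domain partners were examined in early thymic progenitors (ETP, the first thymocytes on the way to T cells) of Tcf1-/- mice and of Tcf1-/+ controls. Members were all genes whose single annotated symbol belongs to the Hspa, Hspb, Hspd, Hspe, Hsph, Hsp90, Hsf or Dnaja, Dnajb and Dnajc series, each read from the brightest of its probe sets. This gave 74 of the 18193 named genes, with 175 of the 45037 probe sets tested. By pattern alone the rule also takes in Hsf2bp, whose product binds a heat shock factor, and Hspb11, a ciliary transport protein. RNA was hybridized to Affymetrix whole-genome mouse arrays, 3 from Tcf1-/- and 3 from Tcf1-/+ mice, all C57Bl/6 and 10 weeks old. A separate label field calls the Tcf1-/+ arrays wild type, so the labels disagree on the control, which is named here as in the titles. Both groups were Lin-CD44+CD25-kit+ cells sorted from thymus. The labels name no allele, sex or number of animals per array, and the level of the deleted gene itself was not analysed here. The RNA came from few cells and was amplified before labelling.

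Heat shock proteins are chaperones that bind unfolded polypeptides. HSP70 proteins do so in cycles of ATP hydrolysis, which J-domain proteins (the DnaJ or HSP40 family) start and HSP110 proteins, as nucleotide exchange factors, reset, while HSP90 acts on nearly folded clients such as kinases and receptors. Some members are made in every cell at all times. Others are switched on by heat, handling or other damage when HSF1 binds heat shock elements in their promoters, and the chaperones of the endoplasmic reticulum answer instead to the unfolded protein response. Because sorting and dissociation can set off the heat shock response, the inducible members were set beside the constitutive ones on every array.

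Promoter sequence from RefSeq (GRCm38.p6, 250 bases before to 50 after each annotated start) was found for 60 of the 74 members. A perfect heat shock element, 3 alternating GAA and TTC units with 2 free bases between neighbours, was searched for on both strands. It was present in 4 of these 60 (6.67%) and in 179 of all 27025 genes of the table (0.662%), where a gene with several windows counted as positive if any held it. The 4 were Hspd1, Hspe1, Dnajb6 and Hsph1, the last with its element after the start. Hspd1 and Hspe1, which encode the mitochondrial chaperonin HSP60 and its cap HSP10, are transcribed away from each other, and their 300-base windows share 285 bases. The stretches below are shown because the same element lies upstream of both genes. They are the opposite strands of chr1:55088038-55088097, printed 5′ to 3′ along each gene, with the letters of the overlapping elements in capitals.
Hspd1: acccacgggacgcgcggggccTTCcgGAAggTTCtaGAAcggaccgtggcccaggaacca
Hspe1: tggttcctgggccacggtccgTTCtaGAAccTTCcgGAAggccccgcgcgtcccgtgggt

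A shorter match, GAANNTTC or TTCNNGAA, was searched for after the perfect element had been counted. It lies inside the longer element wherever that occurs. It was present for 7 of the 9 inducible members with a window (77.8%), for 3 of 16 constitutive cytosolic members (18.8%), and for 4587 of all genes (17.0%). Hspa1a and Hspa1b, the paralogous genes of stress-induced HSP70, were identical at 247 of the 250 bases upstream of their starts (98.8%). Both genes are among the 7 inducible members with the short match and were counted separately there. Their stretches are shown because near-identical copies bear on how their probe sets can be read. Both lie on the minus strand, Hspa1a at chr17:34972217-34972296 and Hspa1b at chr17:34959299-34959378, and capitals mark the short match.
Hspa1a: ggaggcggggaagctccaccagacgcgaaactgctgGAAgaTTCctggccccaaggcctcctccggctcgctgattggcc
Hspa1b: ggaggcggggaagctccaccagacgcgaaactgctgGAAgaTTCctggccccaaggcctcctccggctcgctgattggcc

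The endoplasmic reticulum stress element, CCAAT and CCACG with 9 free bases between them on either strand, was found in 3 of the 60 members and in 37 of all genes (0.137%). All 3 are among the 12 endoplasmic reticulum members with a window. They are Hspa5 (chr2:34772014-34772053, plus strand), Hsp90b1 (chr10:86705628-86705667, minus strand) and Dnajc3 (chr14:118937816-118937855, plus strand), with the fixed letters in capitals. Hsp90b1 holds a second copy on the other strand, which is not printed.
Hspa5: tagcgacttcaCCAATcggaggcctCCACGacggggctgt
Hsp90b1: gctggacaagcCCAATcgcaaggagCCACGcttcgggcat
Dnajc3: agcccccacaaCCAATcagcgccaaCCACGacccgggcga

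The 6 arrays had medians between 5.80 and 5.86 on the log2 scale. Tcf1-/- replicate 2 stood apart: it correlated with the other arrays at between 0.870 and 0.893, while the highest correlation of any pair was 0.933. The counts of the chaperone and stress lists are therefore also given without it. Over all 74 members, they were 44 higher and 30 lower without it, with a median difference of 0.09. All 8 progenitor markers (Kit, Cd44, Flt3, Cd34, Ccr9, Notch1, Hes1 and Il7r) were above background, taken as the 95th percentile of 27 probe sets for bacterial transcripts, 5.21. They were not level between genotypes: 6 of 8 had a lower Tcf1-/- mean, and 4 of 8 did not overlap. Flt3 differed by -1.53 (SE 0.42), Cd34 by -1.24 (SE 0.36) and Hes1 by -0.50 (SE 0.27), while Il7r differed by 2.00 (SE 0.40). Kit, on which the cells were sorted, was at 9.99, 7.45 and 9.60 in Tcf1-/- and at 10.80, 10.50 and 9.83 in Tcf1-/+. Its difference was -1.36 (SE 0.71) with overlap, and it was lowest on Tcf1-/- replicate 2. Cd44, also used in the sort, differed by 0.12 (SE 0.30) with overlap. The list mean, on values centred on each gene's 6-array mean, was 0.01, -0.28 and -0.37 on Tcf1-/- replicates 1 to 3 and 0.30, 0.24 and 0.10 on Tcf1-/+ replicates 1 to 3, without overlap. Of 8 markers of double-positive and mature T cells, 4 were higher and 4 lower, and 3 (37.5%) did not overlap, against 12.2% of all genes. These were Cd4 at 2.93 (SE 0.61), Cd5 at -1.12 (SE 0.38) and Trat1 at -1.04 (SE 0.36). The list mean lay between -0.07 and 0.26 in Tcf1-/- and between -0.44 and 0.34 in Tcf1-/+. Of 6 erythroid markers measured, 5 had a higher Tcf1-/- mean. The erythroid list mean was 0.86, -0.40 and 1.32 on Tcf1-/- replicates 1 to 3 and -1.46, -1.18 and 0.87 on Tcf1-/+ replicates 1 to 3, with Hba-a1 under background in both genotypes. The same measure lay between -0.37 and 1.09 in Tcf1-/- and between -1.14 and 1.26 in Tcf1-/+ for 7 myeloid markers, with Itgam under background. Of 7 markers of NK and innate lymphoid cells, 5 had a higher Tcf1-/- mean, and the median difference of the list was 0.19. Gzmb differed by 4.06 (SE 0.69) and Gzma by 3.05 (SE 1.14). The 2 lower ones were Klrd1 at -1.49 (SE 0.60), without overlap, and Nkg7 at -0.67 (SE 0.52). All 8 markers of thymic stroma had a higher Tcf1-/- mean, by 0.014 to 1.10 with a median of 0.14, and the genotypes overlapped for each. Without Tcf1-/- replicate 2 the counts were 6 higher and 2 lower, with a median of 0.23. None of the markers named here passed the limma threshold. The part of these markers in the results below was not tested. The labels call the arrays biological replicates without naming animals, so p-values measure the spread between these arrays. The mean of 3 Y-linked genes was 5.004, 8.49 and 8.42 in Tcf1-/- and 4.07, 9.39 and 4.01 in Tcf1-/+, so that it was high on 3 of the 6 arrays. A bulk array also cannot tell fewer cells of a type from less RNA per cell.

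The genotypes were compared over the heat shock and DnaJ genes as a whole. The Tcf1-/- mean was the higher one for 46 of the 74 members and the lower one for 28, with a median difference (Tcf1-/- minus Tcf1-/+) of 0.11 log2 units. Over all 18193 genes, 54.3% had a higher mean in Tcf1-/- and the median difference was 0.04. With limma, 0 members passed an adjusted p of 0.05, against 0.0% of all genes. At an unadjusted p under 0.05 there were 4 members, or 5.41%, against 6.78% of all genes. All 4 (Dnajc13, Hspa9, Dnajc3 and Hspb8) were higher in Tcf1-/-, where 3.38% of all genes were higher and 3.40% lower at that level. The genotypes did not overlap for 7 members (9.46%), against 12.2% of all genes. Of these 7, 6 were higher in Tcf1-/- (7.22% of all genes) and 1, Dnajb7, was lower (4.94% of all genes) with both means under background. The means lay at least 1 log2 unit apart for 5 members (6.76%), against 9.13% of all genes. Over all 175 probe sets of the members, 7 (4.0%) had an unadjusted p under 0.05, against 6.48% of all probe sets. The shares counted in either direction thus lay under those of all genes or probe sets. Shares by direction were looked at after the values were seen. Higher in Tcf1-/- at an unadjusted limma p under 0.05 were 5.41% of members, against 3.38% of all genes. Without overlap the share higher was 8.11%, near the 7.22% of all genes, and 62.2% had a higher mean, against 54.3%. The shares lower in Tcf1-/- were 0.0% at that p and 1.35% without overlap, against 3.40% and 4.94% of all genes. No test was made of these shares. Of the members, 65 had a mean above background in at least 1 genotype, and 9 did not (Dnaja4, Dnajb3, Dnajb7, Dnajc12, Dnajc27, Dnajc5g, Hsf5, Hspb7 and Hspb9). No probe set with 1 symbol was found for Hsp90ab1, Hsf1, Hsf3 and Dnajc19, and these were not analysed here.

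The precision of 3 arrays a genotype was limited. Among the 65 members above background, the median half-width of the 95% confidence interval was 0.92 log2 units. For 20 of them (30.8%) the whole interval lay within 1 log2 unit of no difference, against 29.8% of all genes above background. These 20 are the members for which a 2-fold difference lay outside the interval. For the rest, the interval reached past 1 log2 unit on at least 1 side, so a difference of that size was compatible with it.

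**Figure D1:**
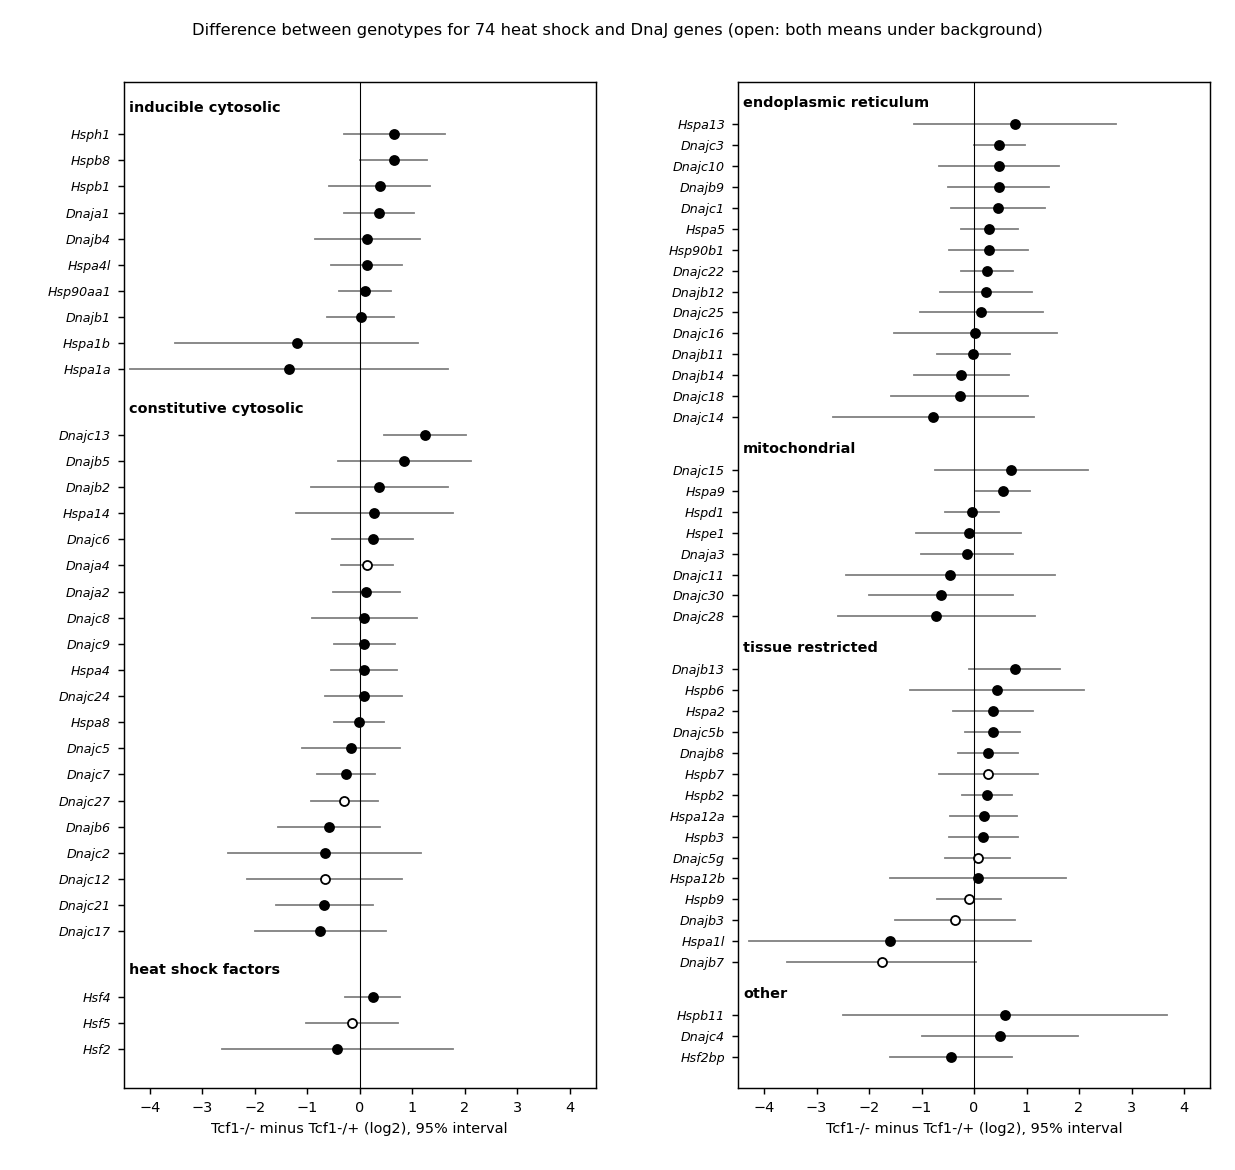
Log2 difference between genotypes (Tcf1-/- minus Tcf1-/+, x axis) with its 95% interval from limma, for each of the 74 members grouped by role. Open points have both genotype means under background. Most points lie within 1 log2 unit of 0, and Hspa1a and Hspa1b have among the widest intervals.

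Among the 10 heat-inducible cytosolic members, the stress-induced HSP70 genes Hspa1a and Hspa1b varied most from array to array. Hspa1a was at 4.81, 8.24 and 4.23 on Tcf1-/- replicates 1 to 3 and at 7.55, 5.49 and 8.28 on Tcf1-/+ replicates 1 to 3. It was high on 1 Tcf1-/- and 2 Tcf1-/+ arrays, and it lay under background on the other 2 Tcf1-/- arrays. Hspa1b was at 7.15, 9.03 and 5.10 in Tcf1-/- and at 8.54, 8.11 and 8.22 in Tcf1-/+. Its Tcf1-/- arrays thus lay on both sides of the Tcf1-/+ arrays. The ranges over the 6 arrays were 4.04 log2 units for Hspa1a and 3.93 for Hspa1b, exceeded by 2.86% and 3.32% of the genes above background.

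The difference between genotypes was -1.34 (SE 1.24, 95% interval -4.37 to 1.68) for Hspa1a and -1.20 (SE 0.95, 95% interval -3.51 to 1.11) for Hspa1b. The limma adjusted p were 0.910 and 0.902. Without Tcf1-/- replicate 2 the differences were -2.58 and -2.17, and without Tcf1-/- replicate 3 they were -0.58 and -0.20. The 2 other probe sets of Hspa1b differed by 0.32 and -0.34, so the sign is not settled by the gene's own probe sets. They followed a similar array pattern within Tcf1-/-. All 4 probe sets of the pair were highest on replicate 2 and lowest on replicate 3, with 9.10 and 5.70 for 1 of the further Hspa1b probe sets and 8.38 and 4.75 for the other. Among Tcf1-/+ arrays, replicate 2 was the lowest for each of the 4. The genes are paralogous, and their transcript and probe sequences were not compared. Their probe sets may therefore share targets and cannot be counted as independent of each other.

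**Figure D2:**
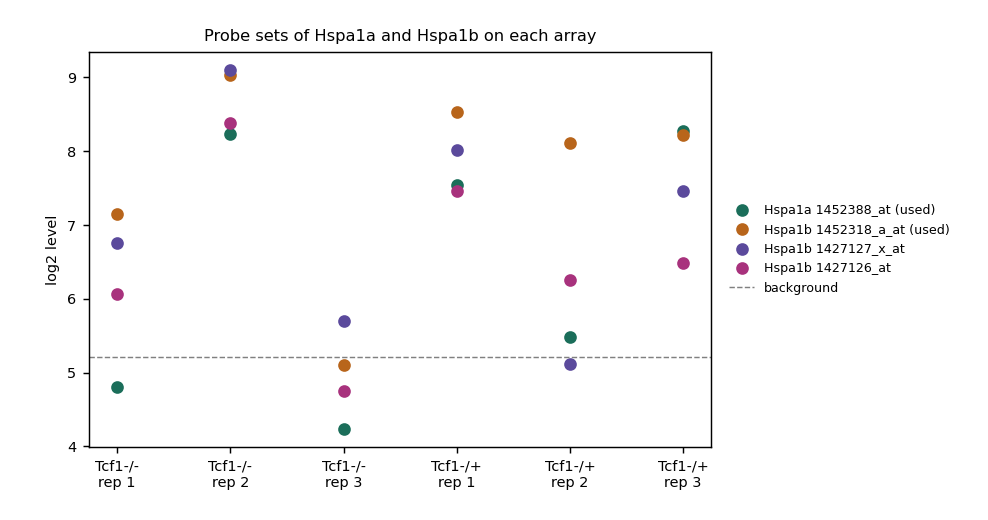
Log2 level (y axis) of the 4 probe sets of Hspa1a and Hspa1b on each of the 6 arrays (x axis), with background as a dashed line. All 4 are highest on replicate 2 and lowest on replicate 3 within Tcf1-/-, and lowest on replicate 2 within Tcf1-/+.

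The other 8 inducible members were steadier. Hsph1, an HSP110 exchange factor, was at 13.19, 13.03 and 12.24 in Tcf1-/- and at 12.75, 11.64 and 12.09 in Tcf1-/+. The groups overlapped, and the difference was 0.66 (SE 0.39), with a limma adjusted p of 0.863. Its other probe set differed by -0.05. Dnajb1, the J-domain partner of stress-induced HSP70, was at 12.68, 13.02 and 12.51 against 12.48, 13.10 and 12.60, so that replicate 2 was the highest array of each genotype. Its difference was 0.02 (95% interval -0.62 to 0.65), and its other probe set was at -1.06. Dnaja1, a J-domain protein of the cytosol, was at 12.57, 13.39 and 12.64 against 12.47, 12.48 and 12.54. Each Tcf1-/- array lay above each Tcf1-/+ array, though the difference of 0.37 (SE 0.27) came mostly from replicate 2, without which it was 0.11. Both other probe sets of Dnaja1 had the opposite sign, at -0.41 and -0.26.

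Hsp90aa1, the inducible cytosolic HSP90, was at 12.97, 12.65 and 12.74 in Tcf1-/- and at 12.50, 12.80 and 12.77 in Tcf1-/+. The difference of 0.09 (95% interval -0.40 to 0.59) had a 2-fold difference outside its interval on this probe set, and the 4 other probe sets lay between -0.31 and 0.10. The small heat shock protein gene Hspb8, part of a chaperone complex for selective autophagy, was at 6.11, 6.60 and 5.89 against 5.79, 5.51 and 5.36. The groups did not overlap, and the difference was 0.65 ± 0.26 (SE) with a limma adjusted p of 0.767. Both other Hspb8 probe sets were under background. Hspb1, which encodes HSP27 (HSP25 in mice), differed by 0.38 (SE 0.39) and Dnajb4, a J-domain protein related to Dnajb1, by 0.15 (SE 0.41), with overlap for both. In all, 8 of the 10 inducible members had a higher and 2 a lower Tcf1-/- mean, with a median of 0.14. An unadjusted limma p under 0.05 was reached by 1 of 10 (10.0%), against 6.78% of all genes. The genotypes did not overlap for 2 of 10 (20.0%), against 12.2% of all genes, and no test was made of these shares. Without Tcf1-/- replicate 2 the counts were 6 and 4, with a median of 0.14. With the mean over each gene's probe sets the median was -0.086, so the direction of the list is not settled across probe sets.

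**Figure D3:**
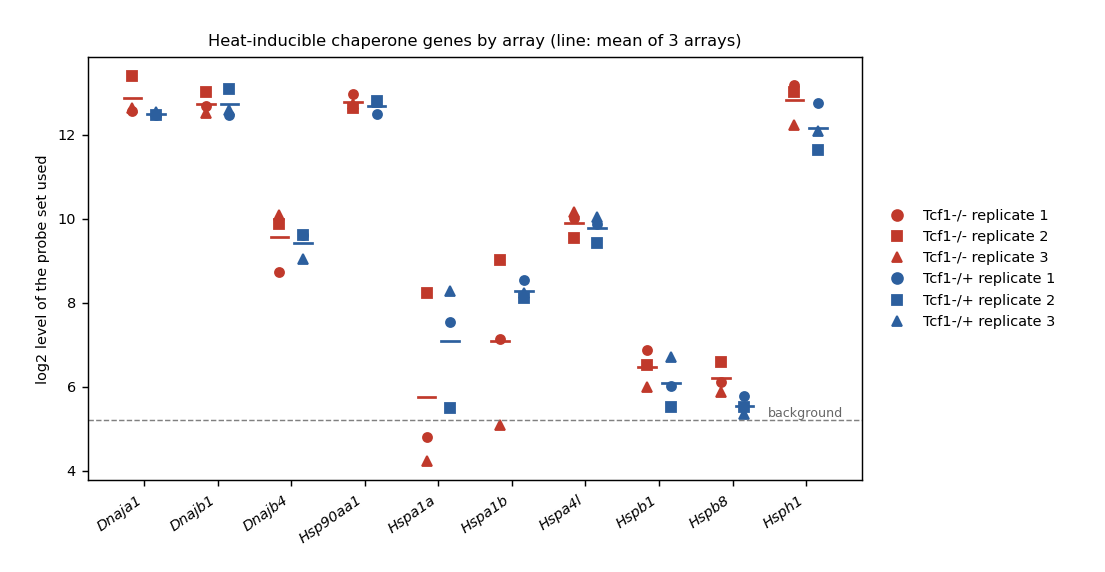
Log2 level (y axis) of the 10 heat-inducible members on each array, with the mean of 3 arrays as a line and background dashed. Levels are not comparable between genes; within genes, Hspa1a and Hspa1b spread over about 4 log2 units (ranges of 4.04 and 3.93), more than the other 8.

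Hspa4l, an HSP110 relative, gave different answers by probe set, a pattern chosen after its values were seen. The brightest probe set, used here by the rule, was at 10.02, 9.53 and 10.17 in Tcf1-/- and at 9.87, 9.42 and 10.04 in Tcf1-/+, a difference of 0.13 (SE 0.28). The next was at 9.18, 9.55 and 9.09 against 6.61, 7.91 and 8.31, a difference of 1.66 (SE 0.47) with a limma adjusted p of 0.610. The third was at 8.99, 7.97 and 7.40 against 6.80, 6.55 and 6.37, a difference of 1.55 (SE 0.43) with a limma adjusted p of 0.607. On these 2 probe sets each Tcf1-/- array lay above each Tcf1-/+ array, while the brightest overlapped. The 2 dimmest differed by -0.45 and -0.02. The mean over all 5 probe sets differed by 0.57.

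**Figure D4:**
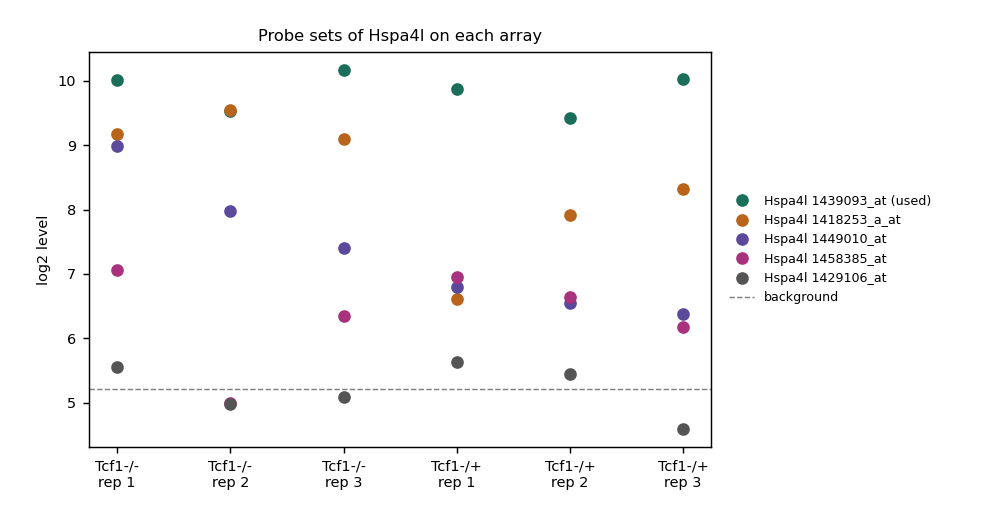
Log2 level (y axis) of the 5 probe sets of Hspa4l on each array (x axis), with background dashed. The genotypes separate on 2 probe sets, with differences of 1.66 and 1.55, and overlap on the brightest, with 0.13.

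Constitutive cytosolic members showed no common direction, with 11 of 20 higher and 9 lower in Tcf1-/- and a median of 0.08 (12 and 8, with 0.09, without Tcf1-/- replicate 2). The name of this list is approximate. It takes in Dnajc13 and Dnajc17, described below as endosomal and nuclear, and Dnajb6, whose promoter holds a perfect heat shock element. Hspa8, the HSP70 that is made in every cell and strips clathrin coats, was at 13.90, 13.51 and 13.65 in Tcf1-/- and at 13.77, 13.65 and 13.70 in Tcf1-/+. Its range over the 6 arrays, 0.39 log2 units, was exceeded by 97.4% of genes above background, and its difference was -0.02 (95% interval -0.50 to 0.46). Hspa4, a constitutive HSP110, differed by 0.08 (SE 0.26). Stress-induced and constitutive HSP70 thus lay near opposite ends of the spread between arrays on these probe sets. Genes were not matched for level in this ranking.

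The member with the lowest adjusted p was Dnajc13, an endosomal J-domain protein that works with Hspa8 in membrane trafficking. It was at 8.43, 8.51 and 7.80 in Tcf1-/- and at 7.43, 6.97 and 6.61 in Tcf1-/+. The groups did not overlap, and the difference was 1.24 (SE 0.32, 95% interval 0.47 to 2.02), with a limma adjusted p of 0.573. Its other probe set differed by 0.09. Dnajb5 was at 7.58, 7.37 and 9.20 against 7.53, 7.04 and 7.04, and its difference of 0.84 (SE 0.52) came mostly from Tcf1-/- replicate 3, without which it was 0.27. Dnajc17, an RNA-binding nuclear protein, differed by -0.75 (SE 0.51) and Dnajc21, a ribosome biogenesis factor, by -0.67 (SE 0.38). Both overlapped between genotypes. Dnajc2, a ribosome-bound J-domain protein, was at 11.32, 8.89 and 11.77 against 11.14, 11.50 and 11.35, so its difference of -0.67 (SE 0.75) came from Tcf1-/- replicate 2, without which it was 0.22.

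Of the 15 members of the endoplasmic reticulum, 11 had a higher and 4 a lower Tcf1-/- mean, with a median of 0.25. Without Tcf1-/- replicate 2 the counts were again 11 and 4, with a median of 0.26, while without Tcf1-/+ replicate 1 the median was 0.12. The master HSP70 of this compartment, Hspa5 (BiP), was at 12.15, 12.01 and 12.17 in Tcf1-/- and at 11.53, 11.82 and 12.10 in Tcf1-/+. The difference was 0.29 (95% interval -0.25 to 0.83), and both other probe sets had the same sign, at 0.23 and 0.10. Hsp90b1 (GRP94), the HSP90 of the same compartment, was at 12.80, 12.47 and 12.99 against 11.96, 12.60 and 12.87, a difference of 0.28 (SE 0.31) with overlap. For Hspa5 and Hsp90b1, Tcf1-/+ replicate 1 was the lowest array, and without it the differences were 0.15 and 0.02. Dnajc3 (p58IPK), which also restrains the kinase PERK, was at 10.42, 10.25 and 10.29 against 9.94, 9.96 and 9.62. The groups did not overlap, and the difference was 0.48 (SE 0.20) with a limma adjusted p of 0.772. Its 4 other probe sets differed by 0.34, 0.08, -0.10 and 0.91, the last through Tcf1-/- replicate 2 at 9.33 where the other 5 arrays lay between 5.87 and 6.22. These 3 genes are those with the stress element shown above, and 0 of them passed the threshold.

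Other members of the compartment were more variable. Dnajb9 (ERdj4), a J-domain partner of Hspa5, was at 8.58, 8.73 and 9.12 against 8.04, 9.15 and 7.83, a difference of 0.47 (SE 0.40). Dnajb11 (ERdj3), which holds unfolded clients with Hspa5, was at 11.18, 11.29 and 11.79 against 11.25, 11.20 and 11.85, a difference of -0.01 (SE 0.29). Dnajc10, a J-domain disulfide reductase, differed by 0.47 (SE 0.47), and both of its further probe sets lay on the other side of 0. Dnajc1 differed by 0.46 (SE 0.37), with the same sign on all 5 of its other probe sets.

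Of 20 further genes of the unfolded protein response, 13 had higher and 7 lower Tcf1-/- means, with a median of 0.20, and 0 passed the limma threshold. Leaving out Tcf1-/- replicate 2 gave 17 higher and 3 lower, with a median of 0.29. Atf4, a transcription factor of the integrated stress response, was at 10.50, 9.64 and 9.77 in Tcf1-/- and at 8.95, 9.05 and 8.94 in Tcf1-/+. The groups did not overlap, with a difference of 0.99 (SE 0.28) and a limma adjusted p of 0.611. Edem1, which routes misfolded glycoproteins to degradation, differed by -1.13 (SE 0.45). Xbp1, another transcription factor of this response, differed by 0.33 (SE 0.44) and Ddit3 by 0.42 (SE 0.28).

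Mitochondrial members had a higher Tcf1-/- mean in 2 of 8 cases and a lower in 6, with a median of -0.12. Without Tcf1-/- replicate 2 the counts turned to 6 higher and 2 lower, with a median of 0.07. That array was the lowest of the 6 for 5 of these 8 genes, against 24.1% of all genes above background. Hspa9 (mortalin), the HSP70 that draws proteins into the mitochondrial matrix, was at 11.98, 11.82 and 11.88 in Tcf1-/- and at 11.08, 11.34 and 11.58 in Tcf1-/+. The groups did not overlap, with a difference of 0.56 (SE 0.21) and a limma adjusted p of 0.742. The next brightest probe set of Hspa9 had the opposite sign, at -0.36.

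The chaperonin pair behind the shared promoter differed little. Hspd1 was at 12.51, 12.15 and 12.42 in Tcf1-/- and at 12.22, 12.40 and 12.59 in Tcf1-/+, a difference of -0.04 (95% interval -0.56 to 0.47). Hspe1 was at 12.31, 11.11 and 11.96 against 12.06, 11.34 and 12.29, a difference of -0.11 (SE 0.41). Both genes were lowest on Tcf1-/- replicate 2, and Hspe1 was also low on Tcf1-/+ replicate 2, where Hspd1 was not. Dnajc11, a protein of the cristae-organizing machinery, was at 8.84, 5.59 and 7.09 against 7.52, 8.15 and 7.19, with Tcf1-/- replicate 2 again the lowest, and its difference of -0.45 turned to 0.34 without that array. Dnajc15, an inner membrane J-domain protein, was at 8.24, 10.03 and 8.01 against 8.42, 7.45 and 8.28, with the same array as the highest, and its difference of 0.71 came to 0.08 without it.

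Heat shock factors and tissue-restricted members were mostly dim. Hsf2 was at 6.49, 4.44 and 4.39 in Tcf1-/- and at 5.35, 7.06 and 4.19 in Tcf1-/+, a difference of -0.43 (SE 0.90) with a Tcf1-/- mean under background. Hsf4 differed by 0.24 (SE 0.22). Of 15 members known mainly from testis, muscle or other tissues, 11 had a higher and 4 a lower mean, with a median of 0.18, and 5 had both means under background. The counts were 7 and 8 when Tcf1-/- replicate 2 was left out, with a median of -0.0062, so the direction rests on that array. Dnajb13, an axonemal protein, differed by 0.77 (SE 0.35) and Dnajc5b by 0.35 (SE 0.22), each from a Tcf1-/+ mean under background, so that their sizes are not well measured. Hspa1l, the testis HSP70 gene beside Hspa1a and Hspa1b, was at 3.68, 4.10 and 6.23 against 4.24, 7.90 and 6.67, and it did not share the array pattern of the other 2 genes.

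By array, the inducible and constitutive lists did not part by genotype. The mean of centred values over the 10 inducible genes was -0.11, 0.56 and -0.46 on Tcf1-/- replicates 1 to 3 and 0.13, -0.26 and 0.14 on Tcf1-/+ replicates 1 to 3. Over the 20 constitutive genes it was 0.02, -0.17 and 0.12, against -0.01, -0.02 and 0.06. Inducible minus constitutive averaged 0.01 ± 0.67 (SD, n = 3) over the Tcf1-/- arrays. The Tcf1-/+ arrays averaged -0.01 ± 0.21 (SD, n = 3), so that the genotypes differed by 0.02. Tcf1-/- replicate 2 was the highest array on this measure, at 0.74, and Tcf1-/- replicate 3 the lowest, at -0.58. Without Tcf1-/- replicate 2 the difference between genotypes was -0.35, and without replicate 3 it was 0.31.

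Much of that spread lay in Hspa1a and Hspa1b, whose mean of centred values was -1.08, 1.57 and -2.40 in Tcf1-/- and 0.98, -0.26 and 1.19 in Tcf1-/+. The other 8 inducible genes gave 0.13, 0.31 and 0.02 in Tcf1-/- against -0.08, -0.26 and -0.12 in Tcf1-/+. On those 8, each Tcf1-/- array lay above each Tcf1-/+ array. The pair was set aside after its values were seen, so the value of the remaining 8 carries no test.

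**Figure D5:**
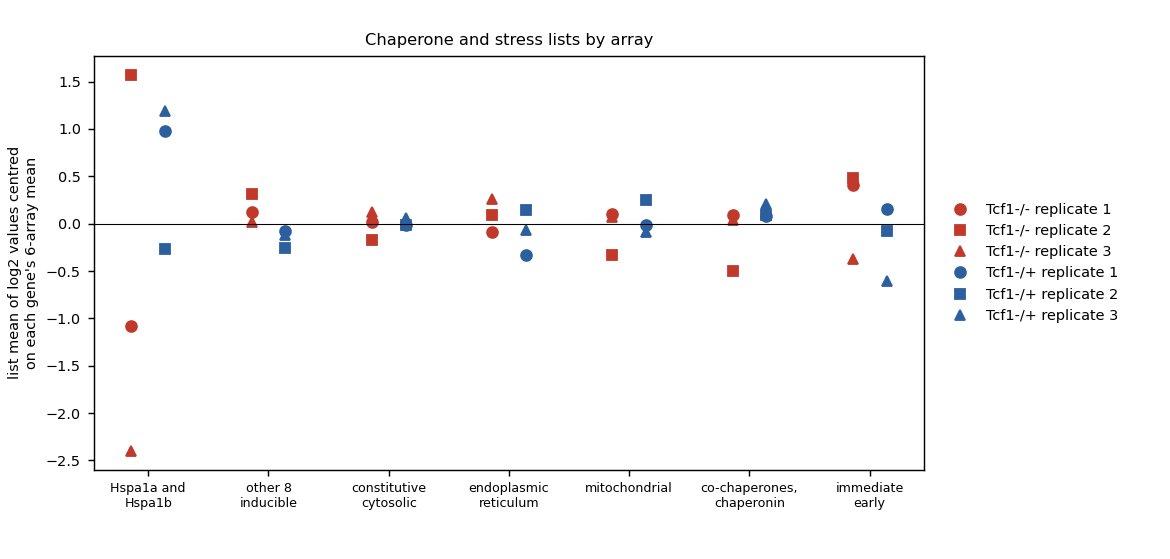
Mean of log2 values centred on each gene's 6-array mean (y axis) for 7 gene lists (x axis), with 1 point per array. Hspa1a and Hspa1b span -2.40 to 1.57, while the constitutive list lies between -0.17 and 0.12.

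Immediate early genes, which sorting and dissociation also induce, did not follow the inducible chaperones on every array. The list mean of 19 such genes was 0.40, 0.49 and -0.37 in Tcf1-/- and 0.16, -0.07 and -0.60 in Tcf1-/+. Tcf1-/- replicate 2 was the highest and Tcf1-/- replicate 3 was low on both lists, whereas Tcf1-/+ replicate 3 was the lowest on the immediate early list and above 0 on the inducible list. Jun, a subunit of AP-1, was at 10.68, 11.74 and 8.34 against 9.94, 9.58 and 9.01, again highest on replicate 2 and lowest on replicate 3 of Tcf1-/-. Fos, its partner, had another order, at 10.28, 6.39 and 4.21 against 9.47, 8.17 and 5.79. Of the 19 genes, 12 had a higher and 7 a lower Tcf1-/- mean, with a median of 0.44, and 0 passed the limma threshold. At an unadjusted limma p under 0.05 there were 3 (15.8%), all higher in Tcf1-/-, against 6.78% of all genes. The genotypes did not overlap for 4 (21.1%), 3 higher and 1 lower, against 12.2% of all genes. No test was made of these shares. Leaving out Tcf1-/- replicate 2 gave 11 and 8, with a median of 0.04. The part of handling in the chaperone values was not tested.

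Co-chaperones and subunits of the cytosolic chaperonin leaned the other way. Of 29 measured, 21 had a lower and 8 a higher Tcf1-/- mean, with a median of -0.19, and 0 passed the limma threshold. The list mean was 0.09, -0.50 and 0.04 in Tcf1-/- against 0.08, 0.09 and 0.20 in Tcf1-/+, so Tcf1-/- replicate 2 was the lowest array. Without it 18 were lower and 11 higher, with a median of -0.04. Tcp1, a chaperonin subunit, was at 12.89, 12.08 and 12.86 against 13.10, 13.07 and 13.13, without overlap, and differed by -0.49 (SE 0.27). Sugt1, an HSP90 co-chaperone, differed by -1.21 (SE 0.51) with overlap. Bag3, a co-chaperone that heat shock induces, lay under background in both genotypes, as did Cryab and Serpinh1.

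The oxidative stress list held 5 of 9 genes with a higher and 4 with a lower Tcf1-/- mean, with a median of 0.05, and 0 passed the limma threshold. The counts were 7 and 2 when Tcf1-/- replicate 2 was left out, with a median of 0.18. The genotypes did not overlap for 4 of the 9 (44.4%), against 12.2% of all genes in either direction. Each of the 4 was higher in Tcf1-/-, and no test was made of this share. The largest differences were those of Srxn1, which reduces oxidized peroxiredoxins, at 1.51 (SE 0.57), and of Nqo1, a quinone reductase, at 1.48 (SE 0.34), with its Tcf1-/+ mean below the background level. Slc7a11, the cystine transporter subunit, also had no overlap, with both means under background. Gclc, the catalytic subunit of the first enzyme of glutathione synthesis, was at 9.83, 10.09 and 9.81 against 8.95, 8.90 and 9.46. It did not overlap between genotypes, with a difference of 0.81 (SE 0.24). Hmox1, a heme-degrading enzyme that many stresses induce, differed by 0.05 (SE 0.24).

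Across the members, other probe sets of the same gene often disagreed with the one used. Of the 74 genes, 47 had more than 1 probe set, and 18 of these 47 had every other probe set on the same side of 0. Of the 82 other probe sets above background in at least 1 genotype, 50 had the sign of the one used. Among the 4 members with an unadjusted p under 0.05, the further probe sets of Dnajc13, Dnajc3, Hspa9 and Hspb8 differed by at most 0.91, and for Dnajc3, Hspa9 and Hspb8 at least 1 of them had the opposite sign.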

How the data were processed

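The authors deposited 1 log2 value per probe set for each of 6 arrays, and the summarization and scaling behind it are not named in any label or header used. This scale was inferred from the values, which lie between 2.15 and 14.8. No further normalization was applied. Of 45101 probe sets, 64 controls were left out. The platform annotation named 1 gene for 34945, several for 932 and none for 9160. All 6 arrays entered 1 linear model per probe set with genotype as its term (limma 3.58.1 under R 4.3.3, moderated by eBayes, two-sided, no covariates), with Benjamini-Hochberg adjustment over the 45037 probe sets. An exact test of 3 against 3 arrays cannot go below 0.1. Arrays have no read depth, and their number limits the precision. The fit was tested on simulated data.

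The members and gene lists were chosen with earlier results of these data known. Named by rule are all inducible members, 9 core chaperones and factors where measured, and the 10 members of smallest p above background. The rule also names any non-overlapping difference of at least 1 log2 unit above background. Further members given above, among them Dnajc2, Dnajc11 and Dnajc15, fall outside this rule and were picked with their values known. The planned count of protein motifs was not made, and protein sequences were not used here. The alternatives were leaving out each array, the replicate block, quantile and median scaling, a filter and a floor at background, a trended robust prior, array weights, Y-linked level as a covariate and the mean over probe sets.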

Additional observations from a re-analysis of the deposited data

How the results depend on the processing

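Over all alternatives, 0 probe sets and 0 members passed limma's adjusted threshold. The lowest adjusted p of any member named by the rule was 0.436, for Dnajc13. Members at an unadjusted p under 0.05 numbered 4, and 2 with a common median, 1 with the filter, 2 with the mean of probe sets and 2 with the replicate block (3 to 4 when single arrays were left out). Deviations of same-numbered arrays correlated at 0.0298, 0.0445 and 0.0117, and 3 of the 6 arrays correlated best with their own number. With so few arrays, these values cannot decide whether the replicate numbers pair the arrays. The median over all members was 0.033 with the mean of probe sets, and 0.17 without Tcf1-/+ replicate 3. When single arrays were left out, the list medians ranged from 0.12 to 0.21 (inducible), -0.11 to 0.087 (constitutive), 0.12 to 0.33 (endoplasmic reticulum) and -0.26 to 0.07 (mitochondrial). With the mean of probe sets the inducible median turned to -0.086. Inducible minus constitutive differed by 0.33 with Hspa1a and Hspa1b left out, an alternative chosen after seeing the data.

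Among members named by the rule, to which this paragraph is limited, signs turned for some, of which none had passed the threshold. Most lay within 0.15 of 0, but Dnaja1 was at 0.37 and Hsf2 at -0.43. With the Y-linked covariate Dnajb1 was at -0.11, Dnajb4 at -0.064, Hspa8 at 0.038 and Hspe1 at 0.16. With array weights Dnajb1 was at -0.035, Hspa8 at 0.016, Hspd1 at 0.0029 and Hspe1 at 0.031. With the mean of probe sets Dnaja1 was at -0.10, Dnajb1 at -0.52, Dnajb4 at -0.11 and Hsp90aa1 at -0.075, and with quantile normalization Hspa8 was at 0.043. When single arrays were left out, the ranges that crossed 0 were -0.13 to 0.20 for Dnajb1, -0.12 to 0.56 for Dnajb4, -0.00090 to 0.16 for Hsp90aa1, -0.13 to 0.066 for Hspa8, -1.12 to 0.34 for Hsf2, -0.046 to 0.32 for Hspa4l, -0.14 to 0.063 for Hspd1 and -0.38 to 0.24 for Hspe1. The cause was not tested. No adjusted call was changed by the replicate block.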
